A study of Homo sapiens with 24 samples.

Results

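Polysome-associated RNA was compared with total cytosolic RNA in PANC-1 cells that had received only the vehicle DMSO, in order to describe which RNAs sat on many ribosomes when no compound was present. The 8 libraries are the DMSO total and DMSO polysome samples of replicates 1 to 4, out of 24 in the series, and a total and a polysome library of the same number come from 1 lysate. Of 54583 genes in the table, the 14438 with no count of 0 in these 8 libraries were tested. PANC-1 is a human line grown from a pancreatic duct carcinoma, and its cells were kept for 6 h in DMSO alone, in 40 µM CID661578 or in 5 µM cercosporamide. The sample labels list both compounds as MNK2 inhibitors, while the paper describes CID661578 as keeping this kinase from the scaffold eIF4G without a change in its activity. RNA bound to more than 3 ribosomes was collected as the polysome fraction, and Smart-seq2 libraries of both fractions were sequenced. Each of the 6 groups of treatment and fraction held 4 samples.

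The DMSO total libraries held 10525148, 10814755, 11602534 and 10964964 counts on genes for replicates 1 to 4, and the polysome libraries held 9268041, 10455688, 10151709 and 11082504. These depths were alike in both fractions. With the compounds, the polysome library of replicate 4 with cercosporamide was much smaller, at 1592459 counts. Levels are given as CPM, the usual share of counts scaled to a common library size. No RNA of known amount was added, so each ratio of polysome to total RNA is relative to the other genes.

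An mRNA in translation carries several ribosomes along its reading frame, and such polysomes sediment deeper in a sucrose gradient than free RNA or single ribosomes. The number of ribosomes on an mRNA depends on how often translation starts, how fast ribosomes move and how long the reading frame is. Stored or repressed mRNAs, and RNAs that encode no protein, stay in the lighter fractions.

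The keratins and other genes known from PANC-1 were present in all 8 libraries. KRT8, KRT18 and KRT19, keratins of simple epithelia, averaged 5000 ± 707, 3290 ± 1090 and 1430 ± 364 CPM of unscaled total libraries (SD, n = 4), and VIM, the mesenchymal filament vimentin, 1020 ± 163. The acinar genes PRSS1, CPA1, AMY2A and PNLIP, the endocrine genes INS, GCG, SST, CHGA and NEUROD1, and the T cell and leukocyte genes CD3E and PTPRC had a count of 0 in every DMSO library. CELA3A, another acinar gene, had at most 5 counts in a library. CD68, listed as an immune marker, was the exception, with 3545 to 6107 counts per library, and the endothelial and fibroblast markers had at most 9 counts.

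Polysome and total RNA differed for 6125 genes, which is 42.4% of those tested. In polysome RNA 2881 genes were higher (20%) and 3244 were lower (22.5%), where a call means a Benjamini-Hochberg adjusted p below 0.05 in the quasi-likelihood test of edgeR and a change of over 1.2-fold. The log2 ratio of polysome to total RNA ran from −6.08 to 3.34 across genes, with a median of −0.02 and quartiles of −0.62 and 0.52. All 4 replicates had the same sign in 5672 of the called genes. The 4 polysome values lay above the 4 total values for 1874 genes (13.0%) and below them for 2293 genes (15.9%). The p-values rest on these 4 replicates alone. In the test the spread of each gene was drawn toward that shared by all genes (32.74 prior against 3 residual degrees of freedom). Of the calls, 1919 higher and 1982 lower ones were also made without each replicate in turn. Without the pairing by replicate, 1875 genes were called higher and 2358 lower.

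The ratio rose with the length of the encoded protein. The 237 nuclear genes for proteins under 100 residues had a median log2 ratio of −1.52, with 215 called lower and the others not called. The medians from 100 to under 200, from 200 to under 400 and from 400 to under 800 residues were −0.73, −0.15 and 0.25. From 800 to under 1600 residues the median was 0.65, and for 1600 residues and more it was 1.16, where 393 of 553 genes were called higher and 13 lower. The median of each of these groups kept this order in every replicate. Over 11332 genes, Spearman's rho between the ratio and protein length was 0.582, against 0.418 for transcript length, 0.157 for the 5′ UTR and 0.142 for the 3′ UTR. These are descriptions across genes, which are not independent replicates, and the length is that of 1 annotated transcript, which need not be the isoform in these cells.

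Genes for very long proteins of varied function led the higher genes. HSPG2, the basement membrane proteoglycan perlecan, had 4.39, 10.3, 7.39 and 4.26 CPM in total RNA of replicates 1 to 4, and 34.9, 92.5, 48.2 and 87.4 CPM in polysome RNA. All 4 polysome values were above all 4 total values, a 9.78-fold difference (log2 3.29, SE 0.239, adjusted p = 3.77e-13). LAMA5, a laminin chain of basement membranes, rose from 11.1, 14.8, 17.1 and 8.61 CPM to 76.4, 166, 89.5 and 123 CPM. The fractions did not overlap (8.66-fold, adjusted p = 2e-13). AGRN, the proteoglycan agrin, was 7.34-fold higher and IGF2R, the receptor that carries lysosomal enzymes, 5.93-fold. PLEC and AHNAK, a linker of intermediate filaments and a giant scaffold protein, were 5.67-fold and 5.15-fold higher. INTS1 of the Integrator complex, WDR81, and the giant ubiquitin ligases HERC2 and UBR4 completed the 10 highest coding genes (mean log2 CPM of 4 or more), at 5.66, 4.94, 4.83 and 4.75-fold. Each of these 10 encodes a protein of at least 1941 residues. In none did the fractions overlap, beside 13.0% of all genes that lay apart in this direction. Picking the strongest ratios with the same sign in all 4 replicates makes such a lack of overlap likely.

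Among coding genes with a mean log2 CPM of 4 or more, the lowest, apart from mitochondrially encoded genes and the ferritin gene FTH1, were genes for microproteins. OST4, the smallest subunit of the oligosaccharyltransferase at 37 residues, had 345, 267, 221 and 205 CPM in total RNA and 41.2, 50.6, 38.7 and 34.3 CPM in polysome RNA. Total RNA was the higher fraction in each replicate, without overlap, by 6.23-fold (log2 −2.64, SE 0.18, adjusted p = 1.17e-13). STMP1, a mitochondrial microprotein of 47 residues, had a log2 ratio of −2.68 and COMMD6, of the COMM domain family, −2.66. SMIM30, TMA7 and SERF1A, all of under 65 residues, had −2.50, −2.48 and −2.47. None of these genes overlapped between fractions, beside 15.9% of all genes that lay apart in this direction, but they were picked for their low ratios. Reads of SERF1A may also come from its near-identical copy SERF1B.

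Some genes went against their length, and those named here were chosen after their values were seen, apart from ITGAE. Of the genes for 800 residues and more, 75 were called lower. These were 62 of 1890 from 800 to under 1600 residues (3.28%) and 13 of 553 longer ones (2.35%), beside 22.5% of all genes. ITGAE, an integrin alpha chain of 1179 residues, fell from 127, 157, 63.7 and 63.5 CPM in total RNA to 21.2, 28.3, 11.7 and 14.9 CPM in polysome RNA. The fractions did not overlap (log2 −2.40, adjusted p = 1.92e-12), while the median of its length group was 0.65. UNK, the RNA-binding protein unkempt, had 44.6, 29.7, 35.6 and 35.4 CPM in total RNA and 5.93, 7.78, 7.45 and 5.17 CPM in polysome RNA. Its log2 ratio was −2.46 (adjusted p = 1.14e-10). The kinase MAP3K13 and the transcription factor CAMTA1 were also lower, at −2.17 and −2.15. Counting ignored the strand, so reads from overlapping or antisense transcripts at these loci cannot be told apart from their mRNAs.

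At the other end, 24 of the genes for fewer than 200 residues were called higher. All of them lay among the 1246 genes from 100 to under 200 residues (1.93%, beside 20% of all genes). PRDX1, an antioxidant peroxiredoxin just under this limit, had 578, 305, 650 and 632 CPM in total RNA and 856, 732, 1260 and 964 CPM in polysome RNA. It was 1.8-fold higher without overlap (adjusted p = 9.86e-05), beside a median of −0.73 for its length group. ARF3, a small GTPase of Golgi transport, was 1.86-fold higher and CBX1, a heterochromatin protein, 1.91-fold, and neither overlapped between fractions. These were chosen after their values were seen.

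GC content also moved with the ratio, in a way that differed between replicates. Among genes from 400 to under 800 residues, the median log2 ratio was −0.07 where the coding sequence had under 45% GC, 0.20 for 45 to 55% and 0.49 for 55% and over. Spearman's rho with GC was 0.385 over these 4184 genes, and 0.132, 0.504, 0.309 and 0.215 in replicates 1 to 4. With CID661578 it was −0.0608, and 0.321, 0.0754, −0.115 and −0.367 in the replicates. With cercosporamide it was −0.238, and −0.252, −0.371, 0.172 and −0.321 in the replicates, so both signs occurred with each compound. With each library corrected for its GC trend, a setting chosen after seeing the data, 2554 of the higher and 3003 of the lower calls were also made.

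**Figure D1:**
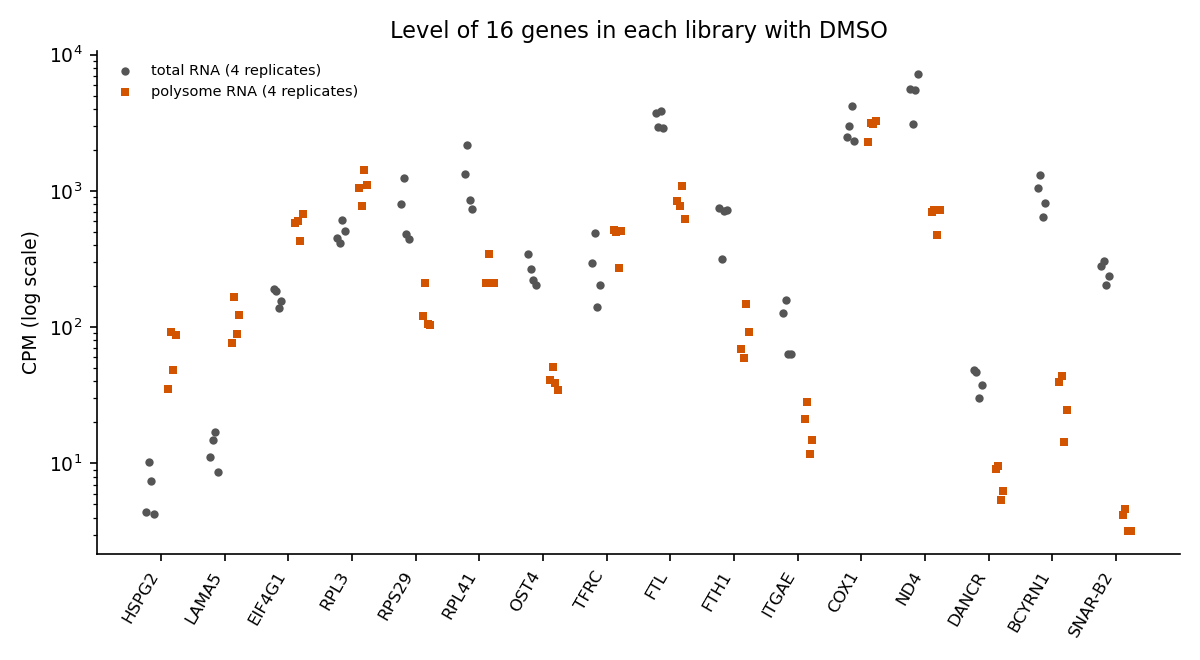
CPM on a log axis for 16 genes in each DMSO library, with grey circles for total RNA and orange squares for polysome RNA (4 replicates each). The fractions overlap for TFRC and COX1 and lie apart for the other 14 genes.

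Ribosomal protein mRNAs were mostly lower, and their ratio followed their length. They carry a 5′ terminal oligopyrimidine (TOP) motif, through which growth signals control their translation. Of 86 tested, 3 were called higher and 46 lower, with a median of −0.49 beside −0.02 for all genes and 22.5% lower overall. Across these 86 genes rho with length was 0.814, and 52 lay above and 34 below the median of their length group. RPS29, a protein of 56 residues, had 803, 1240, 483 and 442 CPM in total RNA and 121, 210, 106 and 104 CPM in polysome RNA. Total RNA was 5.25-fold higher, without overlap (adjusted p = 4.06e-13). RPL41 and RPS21, also very short, had log2 ratios of −2.28 and −1.95, and the 7 tested pseudogenes of RPL41, which can share its reads, were all lower. RPL3, at 403 residues among the longest, had 449, 414, 612 and 508 CPM in total RNA and 1050, 773, 1410 and 1100 CPM in polysome RNA. It was 2.16-fold higher without overlap (adjusted p = 1.08e-06). RPS3 was 1.46-fold higher, a call that was lost without the pairing by replicate (adjusted p = 0.0658).

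The other TOP mRNAs went both ways. Of 20 tested, 8 were called higher and 7 lower (40% and 35%, beside 20% and 22.5% of all genes). Their median was 0.11, with −0.51 in replicate 2 and 0.19 to 0.29 in the others. The elongation factor EEF2 was 2.00-fold higher, with 397, 416, 365 and 369 CPM in total RNA and 712, 632, 867 and 907 CPM in polysome RNA. The ranges lay apart (adjusted p = 1.01e-05). HNRNPA1, a splicing regulator, was 2.07-fold higher with overlapping ranges. EEF1A1, the factor that brings tRNA to the ribosome, was 1.53-fold higher (adjusted p = 0.0079), but not without replicate 4 (0.0797) or without the pairing (0.0804). PABPC1, the poly(A)-binding protein, fell from 203, 144, 224 and 216 CPM to 95.2, 70.4, 56.9 and 112 CPM. That 2.39-fold difference had no overlap (adjusted p = 7.84e-07), although the protein has 636 residues. TPT1, a short TOP mRNA for a growth-related protein, was 1.75-fold lower, and NPM1, the nucleolar protein nucleophosmin, had a log2 ratio of 0.02.

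The cap-binding machinery, on which the MNK kinases act, was also spread. Of 15 genes of eIF4F, the MNKs and the 4E-BPs, 6 were higher and 5 lower (40% and 33.3%, beside 20% and 22.5% of all genes), some of them by calls that other settings lost. Their median was 0.28, and −0.10 to 0.51 in single replicates. EIF4A1, the helicase of the complex, was not among them: it was listed at 0 in every library. It overlaps the annotated gene SENP3-EIF4A1, and the counting left out reads that overlap several genes. EIF4G1, the scaffold that joins the cap-binding protein to the small ribosomal subunit, had 190, 184, 137 and 156 CPM in total RNA and 585, 600, 426 and 672 CPM in polysome RNA. It was 3.41-fold higher with no overlap (adjusted p = 1.55e-10). EIF4G2, a relative that lacks the cap-binding partner site, had 1740, 1550, 1190 and 1690 CPM in total RNA and 879, 779, 885 and 921 CPM in polysome RNA. It went the other way, 1.76-fold lower with no overlap (adjusted p = 0.000138), while its length group had a median of 0.65. EIF4EBP1, whose protein keeps eIF4E from joining eIF4G, was 2.32-fold lower.

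The kinase and cap-binding genes at the centre of the study gave less firm values. EIF4E, the cap-binding protein itself, was 1.39-fold lower (adjusted p = 0.0251). That call was lost without replicate 1, 3 or 4 (0.0563, 0.127 and 0.219), without the pairing (0.166), with no filter (0.0636) and with the GC correction (0.109). MKNK2, which encodes MNK2, had 2.46, 2.91, 9.89 and 6.44 CPM in total RNA and 6.53, 9.41, 11.9 and 6.93 CPM in polysome RNA. The ranges overlapped, and its 1.75-fold higher level (adjusted p = 0.0249) was not called without replicate 1 (0.106) or 2 (0.149), without the pairing (0.218), in a fit of all 24 libraries (0.0683) or with the GC correction (0.0973). MKNK1 had a log2 ratio of 0.22 and was not called. PDCD4, an inhibitor of the helicase of the complex, was 1.66-fold higher, but not without replicate 1 (0.0802) or 2 (0.0708) or without the pairing (0.260).

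Of 81 nuclear-encoded respiratory chain subunits, 6 were higher and 55 lower (67.9%, beside 22.5% of all genes, median −0.84). They were close to other genes of their length, with 34 above and 46 below the median of their length group, and rho with length was 0.859. UQCRQ, a small subunit of complex III, had 1730, 1450, 876 and 890 CPM in total RNA and 296, 344, 184 and 175 CPM in polysome RNA. Total RNA was 4.95-fold higher without overlap (adjusted p = 5.12e-13), and ATP5F1E, the small epsilon subunit of ATP synthase, was 4.83-fold lower in polysome RNA. The long subunit SDHA, of complex II, was 2.28-fold higher with overlapping ranges. Of 83 mitochondrial ribosomal proteins, 35 were called lower (42.2%, beside the same 22.5%) and the others not called (median −0.33), with 46 above and 37 below the median of their length group, and MRPL33, the lowest, was 5.51-fold lower at 65 residues.

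RNAs made inside mitochondria, which are read by the organelle's own ribosomes, were depleted further. Of the 13 mRNAs of the mitochondrial genome, 12 were called lower (92.3%, beside 22.5% of all genes), with a median of −1.96. ND4L, a complex I subunit, had 1980, 976, 2600 and 2740 CPM in total RNA and 169, 201, 152 and 225 CPM in polysome RNA. The fractions lay far apart, by 10.5-fold (log2 −3.39, SE 0.218, adjusted p = 2.14e-14). ND4, on the same transcript, was 7.91-fold lower and ND2 5.89-fold. COX1, the catalytic subunit of cytochrome oxidase, was the exception. It had 2490, 3010, 4190 and 2330 CPM in total RNA and 2290, 3170, 3080 and 3240 CPM in polysome RNA. These ranges overlapped, and the log2 ratio was 0.00 (adjusted p = 0.989). The 13 mRNAs together took 4.28, 2.59, 4.38 and 4.75% of the counts in total RNA and 1.59, 1.63, 1.18 and 1.65% in polysome RNA, again without overlap.

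The mitochondrial rRNA and tRNA genes were lower as well, 19 of 24 by call (79.2%, beside 22.5% of all genes) and 1 higher (median −1.33). RNR2, the large mitochondrial rRNA and the most counted gene of each DMSO library, took 5.50, 5.99, 6.13 and 4.46% of counts in total RNA and 1.63, 3.81, 2.32 and 3.35% in polysome RNA. It was 2.36-fold lower without overlap (adjusted p = 7.98e-06). The tRNA gene TRNP was 13.3-fold lower. TRNS1, which borders COX1 on the mitochondrial genome, was the 1 gene called higher (1.91-fold, adjusted p = 0.00188), a call lost without the pairing (0.058) and in the fit of all 24 libraries (0.0715). MIR12136, annotated on chromosome 1, had almost the same CPM as TRNS1 in each library and was 1.92-fold higher (adjusted p = 0.00173), a call lost in the same settings (0.0572 and 0.0772). Reads with several alignments were counted at each place, so these counts cannot be assigned to either copy. The same holds for 18 nuclear pseudogenes of mitochondrial genes, of which 15 were lower (83.3%, beside 22.5% of all genes, median −1.60).

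**Figure D2:**
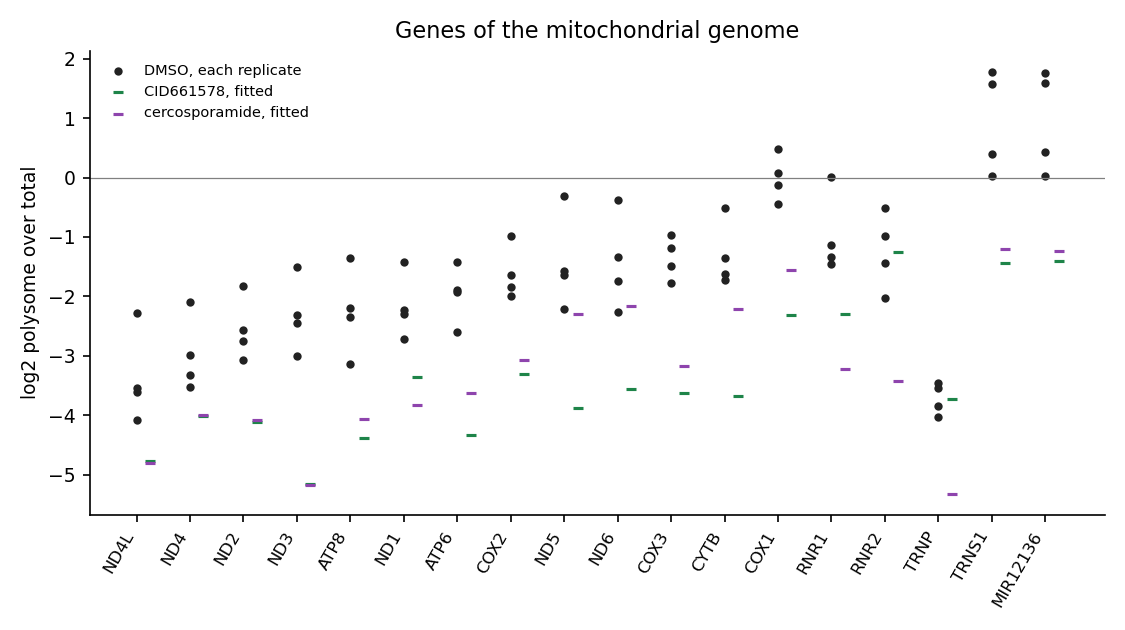
Log2 ratio of polysome to total RNA for the 13 mitochondrially encoded mRNAs, 2 rRNAs, 2 tRNAs and MIR12136. Black points are the 4 DMSO replicates, and green and purple dashes are the fitted values with CID661578 and cercosporamide. With DMSO the fitted value is 0.00 for COX1, and 0.93 and 0.94 for TRNS1 and MIR12136.

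Ferritin mRNAs stood far below the genes of their length. Ferritin stores iron, and when iron is low the iron regulatory proteins bind a hairpin in the 5′ UTR, the iron-responsive element, and block translation. FTH1, the heavy chain, had 742, 315, 707 and 725 CPM in total RNA and 69.7, 59.1, 147 and 92.1 CPM in polysome RNA. The fractions did not overlap, and polysome RNA was 6.79-fold lower (log2 −2.76, SE 0.191, adjusted p = 1.48e-13), beside a median of −0.73 for its length group. FTL, the light chain, had 3710, 2930, 3850 and 2910 CPM in total RNA and 849, 770, 1080 and 624 CPM in polysome RNA. It too lay apart, by 4.08-fold (adjusted p = 1.03e-11). All 14 tested pseudogenes of FTH1 were also lower, at −3.01 to −2.83, and share reads with it.

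A ferritin hairpin and 1 from the transferrin receptor gene TFRC are shown because they are known control elements of iron handling. They were searched on the mRNA strand of GENCODE v44 transcripts on hg38 as a C, then 5 bases, then CAGTGN, then 5 bases of which at least 4 can pair with the first 5, G with T included. The lower stem before the C was not part of the search. The capitals mark the bulged C and the loop, and the strand is that of the mRNA. Of 10172 5′ UTRs of genes tested, each of at least 30 bases, 52 held the motif (0.511%), and of 11299 3′ UTRs 580 did (5.13%). A match is a description of letters and not a bound site. The hairpins shown lie at chr19:48965335-48965364 (plus strand, FTL) and chr3:196050978-196051007 (minus, TFRC, the first of 4 in its 3′ UTR).
FTL 5-prime UTR 1: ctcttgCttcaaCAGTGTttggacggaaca
TFRC 3-prime UTR 1: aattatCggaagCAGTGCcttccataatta

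Other genes of iron control did not share the ferritin pattern. TFRC, which takes up iron, carries its elements in the 3′ UTR, where they govern mRNA decay. It was 1.71-fold higher with overlapping ranges (adjusted p = 0.00067, and 0.136 without the pairing). SLC11A2, an iron transporter with 1 motif in its 3′ UTR, had a log2 ratio of −0.12. EPAS1, a hypoxia factor, and CDC42BPA, a kinase, are listed as iron-controlled but held no match, and were 2.00 and 3.71-fold higher. In all, 3 of 7 tested iron genes were higher and 2 lower (42.9% and 28.6%, beside 20% and 22.5% of all genes).

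Among other mRNAs with known translational control, of 9 polyamine genes 5 were lower (55.6%, beside 22.5% of all genes) and the others not called (median −0.48). OAZ1, the antizyme made by a frameshift, had 1350, 1120, 1360 and 1160 CPM in total RNA and 565, 732, 626 and 490 CPM in polysome RNA. It was 2.08-fold lower without overlap (adjusted p = 4.06e-06), SAT1, the enzyme of polyamine breakdown, 2.22-fold, and AMD1, which carries an upstream reading frame, 1.62-fold. ODC1, the enzyme that starts polyamine synthesis, had a log2 ratio of 0.39 and was not called (adjusted p = 0.075), but was called higher without replicate 3 (0.0164), with the GC correction (0.0219) and with scaling without mitochondrial genes (0.0411).

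Selenoprotein mRNAs recode a stop codon as selenocysteine. Of 18 tested, 4 were higher (22.2%, near the 20% of all genes) and 10 lower (55.6%, beside 22.5%), with a median of −0.88. GPX4, the peroxidase that protects membrane lipids, fell from 716, 831, 741 and 533 CPM to 137, 226, 178 and 133 CPM. The 4.23-fold difference had no overlap (adjusted p = 4.32e-12), and its ratio of −2.08 stood beside −0.73 for its length group. SELENOW, at 87 residues, was 5.31-fold lower. The longer TXNRD1, thioredoxin reductase, and SELENOO were 1.69 and 2.29-fold higher.

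mRNAs whose upstream open reading frames limit translation in unstressed cells had a median of −0.19. Of 15 tested, 1 was higher and 4 lower (6.67% and 26.7%, beside 20% and 22.5% of all genes). Without replicate 1 the median was −0.02, beside 0.03 for all genes in that setting, and it was −0.34 with the GC correction. DDIT3, the stress factor CHOP, had 70.7, 48.6, 362 and 61.8 CPM in total RNA and 35.3, 31.7, 216 and 23.9 CPM in polysome RNA. Polysome RNA was lower in each replicate (1.91-fold, adjusted p = 5.31e-05), but replicate 3 was several times higher in both fractions, and without the pairing the call was lost (0.380). ATF4, its upstream activator, and PPP1R15A, the phosphatase subunit that ends the stress response, were also highest in replicate 3 and were not called (log2 −0.32 and −0.37). PPP1R15A was called lower without replicate 3 (adjusted p = 0.032) and with the GC correction (0.0453).

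Genes of the matrix and its receptors had the highest median of the lists. Of 36 collagens, laminins and integrins tested, 24 were higher and 1, ITGAE, was lower, with a median of 0.84 beside −0.02 for all genes and 20% higher overall. Their median length was 1266 residues, and 21 of the 36 lay above and 15 below the median of their length group, by a median of 0.16. COL18A1, a basement membrane collagen, had 24.0, 18.9, 11.8 and 16.3 CPM in total RNA and 77.4, 104, 44.9 and 87.9 CPM in polysome RNA. It was 4.37-fold higher without overlap (adjusted p = 8.45e-11), and the laminin chain LAMB2 3.45-fold.

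Of 26 translocon, signal peptidase and oligosaccharyltransferase genes, which act where proteins enter the endoplasmic reticulum, 3 were higher and 15 lower (11.5% and 57.7%, beside 20% and 22.5% of all genes), with a median of −0.60. The split ran with length (rho 0.820): the large catalytic subunit STT3A and the channel SEC61A1 were 2.12 and 1.66-fold higher, and OST4 was the lowest. Of 15 chaperones of the endoplasmic reticulum, 1 was higher and 1 lower, 6.67% each and below those shares of all genes (median −0.01). HYOU1, a large chaperone, was 2.6-fold higher. MANF, a secreted stress factor, was 1.54-fold lower (adjusted p = 0.0198), but not without replicate 1 (0.236) or 4 (0.0888) or without the pairing (0.0941). HSPA5, the chaperone BiP, had 681, 516, 2790 and 1130 CPM in total RNA and 651, 418, 2160 and 929 CPM in polysome RNA. As with DDIT3, replicate 3 was the highest in both fractions, and the ratio of −0.26 was not called (adjusted p = 0.209). Among 151 solute carriers 39 were higher (25.8%, near the 20% of all genes) and 16 lower (10.6%, below the 22.5% of all genes). Their median was 0.18, and 0.34 without replicate 1, and 79 lay above and 72 below the median of their length group. They ran from 3.07-fold higher for the inositol transporter SLC5A3 to 3.27-fold lower for SLC27A5.

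Glycolytic enzymes were high for their length. Of 17, 9 were called higher (52.9%, beside 20% of all genes) and the others not called, with a median of 0.65, and 16 lay above the median of their length group. GAPDH had 2880, 3130, 3750 and 3220 CPM in total RNA and 5650, 5080, 6410 and 5890 CPM in polysome RNA. It was 1.78-fold higher without overlap (adjusted p = 0.000125), and HK1 and PFKL, which catalyse early steps, were 2.41 and 2.29-fold higher. PKM, the last enzyme of the pathway, had a log2 ratio of 0.21, was not called, and under the alternatives was called higher without replicate 2 alone (adjusted p = 0.00858). Of 20 aminoacyl-tRNA synthetases, 9 were higher and 1 lower (45% and 5%, beside 20% and 22.5% of all genes, median 0.42). VARS1, the valine enzyme, was 2.86-fold higher and FARSB, a subunit of the phenylalanine enzyme, 1.75-fold lower. Of 22 cholesterol synthesis genes 4 were higher and 3 lower (18.2% and 13.6%, near or below the same shares of all genes, median 0.01). LSS, which closes the sterol rings, was 2.95-fold higher. MSMO1, a sterol oxidase, was 1.82-fold lower, but not with the GC correction (adjusted p = 0.359).

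Of 8 subunits of the CCT chaperonin, which folds actin and tubulin, 6 were higher (75%, beside 20% of all genes) and the others not called (median 0.51). CCT7 had 682, 675, 794 and 857 CPM in total RNA and 1600, 1030, 1930 and 1630 CPM in polysome RNA. It was 2.02-fold higher without overlap (adjusted p = 8.14e-06), while the subunit TCP1 had a log2 ratio of −0.06. Of 12 heat shock genes 6 were higher (50%) and 1 lower (median 0.45). HSP90AA1 was 2.01-fold higher with overlapping ranges, and the short co-chaperonin HSPE1 1.78-fold lower (adjusted p = 0.000111, and 0.0716 without the pairing). Of 37 proteasome genes 11 were higher (29.7%) and 1 lower (median 0.11, but 0.30 without replicate 2, 0.24 without replicate 4 and 0.24 with the GC correction). PSMD2, a large subunit of the cap, was 3.00-fold higher, and PSMB10, a subunit of the immunoproteasome, 2.41-fold lower, both without overlap.

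Of 11 tubulins 5 were higher (45.5%, beside 20% of all genes) and the others not called (median 0.59), and the 5 were all beta-tubulins. TUBB had 6560, 7650, 8220 and 8600 CPM in total RNA and 10500, 10200, 17900 and 16400 CPM in polysome RNA. It was 1.73-fold higher without overlap (adjusted p = 0.000449), while the alpha-tubulin TUBA1B had a log2 ratio of −0.18 and was not called (adjusted p = 0.404). The difference between the families was not tested.

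The medians of histone mRNAs were near that of all genes in spite of their short reading frames. Replication-dependent histone mRNAs end in a stem-loop in place of a poly(A) tail, and the library method primes on poly(A), so only a small part of them may be counted. Of 47 tested, 4 were higher and 9 lower (8.51% and 19.1%, beside 20% and 22.5% of all genes, median −0.02), and 41 lay above the median of their length group. In replicates 1 to 4 the median was −0.40, 0.23, −0.32 and −0.09. Together they took 0.359 ± 0.0881% of counts in total RNA and 0.187 ± 0.0707% in polysome RNA (SD, n = 4), with overlapping ranges. H4C3 had 2910, 3770, 3440 and 2170 CPM in total RNA and 947, 1800, 959 and 610 CPM in polysome RNA. It was 3.01-fold lower without overlap (adjusted p = 4.07e-09). H3C14 was 3.26-fold higher (adjusted p = 2.81e-05) with overlapping ranges, and it shares its reads with the near-identical H3C15. Of 11 variant histones 1 was higher and 2 lower (9.09% and 18.2%, median −0.18), and all 11 lay above the median of their length group. The 1 higher gene was H1-10, a linker histone, at 2.99-fold, which rests on few counts.

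Of 393 C2H2 zinc finger genes 49 were higher and 61 lower (12.5% and 15.5%, below the 20% and 22.5% of all genes). Their median was −0.04, and 0.05 with the GC correction, and 264 lay below the median of their length group. Of 22 immediate early genes 7 were higher (31.8%, beside 20% of all genes) and 2 lower, and 15 lay above the median of their length group. Their median was 0.10, with −0.23 in replicate 1 and 0.36, 0.37 and 0.33 in replicates 2 to 4.

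**Figure D3:**
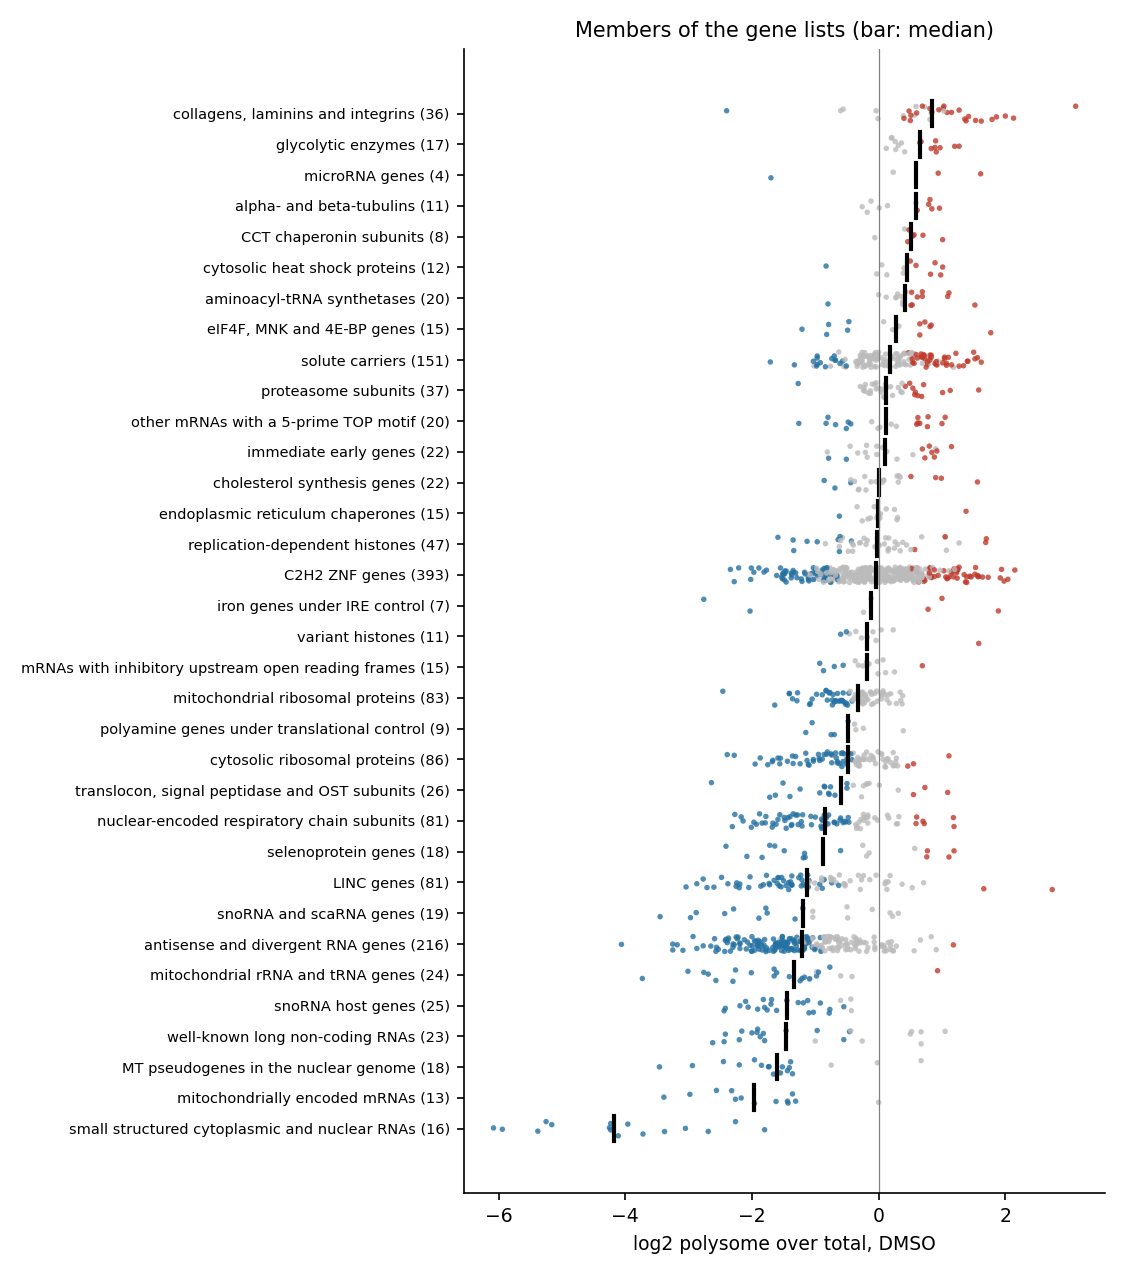
Each point is a tested member of a gene list, at its fitted log2 ratio of polysome to total RNA with DMSO (4 replicates), with the number tested in parentheses. Red points were called higher, blue lower and grey neither, and black bars are list medians, from −4.17 for small structured RNAs to 0.84 for collagens, laminins and integrins.

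Non-coding RNAs were depleted from polysome RNA. Of 558 genes annotated as lncRNA, 312 were lower (55.9%, beside 22.5% of all genes) and 8 higher (1.43%, beside 20%), with a median of −1.13. The median of 11383 protein-coding genes was 0.09, and 2756 were higher (24.2%) and 2189 lower (19.2%). Genes annotated as lncRNA took 0.587, 0.623, 0.560 and 0.533% of counts in total RNA and 0.229, 0.283, 0.215 and 0.207% in polysome RNA. The ranges lay apart, and the share of protein-coding genes was higher in polysome RNA, at 90.0 ± 1.22% against 85.3 ± 1.86% (SD, n = 4), also without overlap. The median of pseudogenes lay between, at −0.30, and many share reads with their parent genes. Of 1887 pseudogenes, 83 were higher (4.4%, beside 20% of all genes) and 511 lower (27.1%, near the 22.5% of all genes).

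The small structured RNAs fell most. All 16 tested were lower (100%, beside 22.5% of all genes), with a median of −4.17. BCYRN1, a short RNA polymerase III transcript known as BC200, had 1050, 1300, 640 and 818 CPM in total RNA and 39.8, 43.9, 14.3 and 24.6 CPM in polysome RNA. Polysome RNA was 32.6-fold lower without overlap (log2 −5.03, SE 0.198, adjusted p = 9.32e-21). SNAR-B2, of a family of small RNAs that bind the nuclear factor 90 proteins, had 281, 305, 203 and 239 CPM in total RNA and 4.22, 4.62, 3.18 and 3.17 CPM in polysome RNA. That was 67.6-fold lower (log2 −6.08, adjusted p = 5.62e-22), the lowest ratio of all genes tested. The 8 tested SNAR genes were all lower and share reads with each other, so they are not separate measurements. RN7SK, which holds the elongation factor P-TEFb in check, was 38.1-fold lower, and RN7SL3, of the signal recognition particle RNA and named after its values were seen, 13.2-fold. The library method primes on poly(A), so only a small part of these RNAs may be counted, as with the histone mRNAs.

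Hosts of snoRNAs, which carry these guide RNAs in their introns, were also low, with 22 of 25 lower (88%, beside 22.5% of all genes) and the others not called (median −1.45). DANCR had 48.4, 46.8, 30.3 and 37.6 CPM in total RNA and 9.04, 9.58, 5.37 and 6.26 CPM in polysome RNA. It was 5.44-fold lower without overlap (adjusted p = 2.72e-11). SNHG6 was 5.34-fold lower, and GAS5, named after its values were seen and itself a TOP RNA, 3.53-fold. The call of SNHG1 (1.46-fold lower, adjusted p = 0.045) was lost without each replicate in turn (0.069 to 0.347) and in several other settings. Of 19 snoRNA and scaRNA genes 10 were lower (52.6%) and the others not called (median −1.20). That median was −2.31 with the filterByExpr filter, −2.01 over genes counted in all 24 libraries and −2.07 in the fit of all 24 libraries. Of 4 microRNA genes 2 were higher and 1 lower (50% and 25%, beside 20% and 22.5% of all genes). Their median was 0.59, but 1.16 without replicate 2 and −0.06 with no filter. Of the 2 higher genes 1 was MIR12136, whose reads cannot be told from those of TRNS1.

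Longer non-coding RNAs were mostly lower. Of 81 LINC genes 49 were lower (60.5%, beside 22.5% of all genes) and 2 higher (median −1.13), and of 216 antisense and divergent RNA genes 127 were lower (58.8%) and 1 higher (median −1.21). NUTM2A-AS1 was 6.03-fold lower. Of 23 well-known lncRNAs 15 were lower (65.2%) and the others not called (median −1.46). The next 4 genes were chosen after their values were seen. MALAT1, a nuclear RNA, was 2.74-fold lower and CRNDE 8.81-fold. NEAT1, the scaffold of paraspeckles, had a log2 ratio of 0.67 (adjusted p = 0.197) and under the alternatives was called higher without replicate 3 alone (0.047). LINC01963 was among the 8 lncRNAs called higher, with 1.07, 0.624, 0.0891 and 0.363 CPM in total RNA and 4.02, 3.51, 1.79 and 4.01 CPM in polysome RNA. It did not overlap (adjusted p = 1.08e-05), but rests on few counts. NORAD, a cytoplasmic RNA that binds Pumilio proteins, had a log2 ratio of 0.50 (adjusted p = 0.109), and 0.79 without replicate 2, where it was called higher (0.0245). TUG1, listed as a lncRNA but annotated as coding for 153 residues in the reference used here, was at 0.52 (adjusted p = 0.0621). It was called higher without replicate 1 (0.0307) or 3 (0.0428), in DESeq2 (0.0436), with its size factors in edgeR (0.0488) and with scaling without mitochondrial genes (0.0365).

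The same fractions were compared in cells with each compound, from libraries that share none with DMSO. With CID661578, 2662 of 14263 genes were higher (18.7%) and 2477 lower (17.4%), where 1651 were higher without replicate 3 and 1640 without the pairing. With cercosporamide, 3313 of 12361 were higher (26.8%) and 3256 lower (26.3%). Of the DMSO calls tested with CID661578, 64.9% of the higher and 64.0% of the lower ones were also called there, which were 69.6% and 84.2% of the CID661578 calls. With cercosporamide these shares were 66.1% and 79.9% of the DMSO calls, and 55.0% and 69.1% of the cercosporamide calls. Opposite calls were made for 3 genes with CID661578 and for 54 with cercosporamide.

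The length pattern with DMSO recurred with each compound. The medians for under 100 and for 1600 residues and more were −1.52 and 1.16 with DMSO, −1.34 and 1.22 with CID661578, and −2.29 and 1.29 with cercosporamide. For FTH1 the log2 ratios were −2.76, −3.08 and −3.40 in the same order, and for ITGAE −2.40, −2.48 and −3.75. For the mitochondrial mRNAs the values lay farther apart. Their median was −1.96 with DMSO, −3.88 with CID661578 and −3.63 with cercosporamide, and COX1 had 0.00, −2.32 and −1.56. Differences between treatments were not tested.

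**Figure D4:**
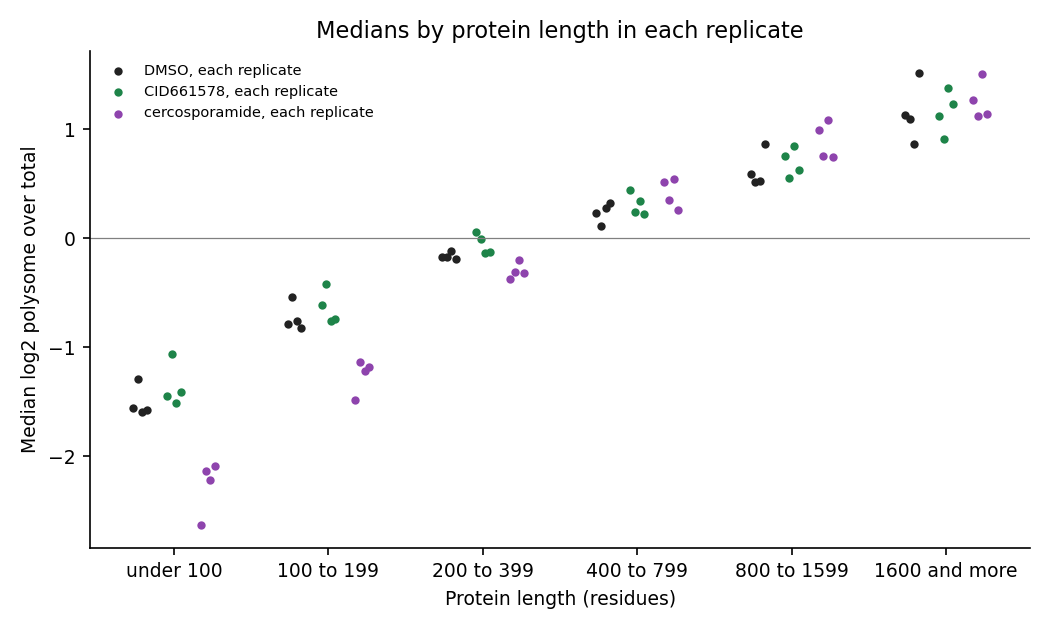
Median log2 ratio of polysome to total RNA for nuclear genes in 6 groups of protein length in residues, with 1 point per replicate (4 with each treatment). Black is DMSO, green CID661578 and purple cercosporamide. With DMSO the medians run from −1.59 to −1.29 for under 100 residues and from 0.86 to 1.51 for 1600 residues and more.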

How the data were processed

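Polysome-associated and total cytosolic RNA of PANC-1 cells was sequenced from 4 replicates per treatment. The authors removed rRNA reads with BBDuk, used HISAT2 for alignment to hg38, and ran featureCounts at default settings on RefSeq genes. The deposited values are counts per gene without normalization. Here, genes with no count of 0 in the 8 libraries of a treatment were scaled with TMM and fitted in edgeR 4.0.16 (R 4.3.3) with the replicate number as a block (common biological coefficient of variation 0.216, 32.74 prior and 3 residual degrees of freedom). The quasi-likelihood test was adjusted over all genes tested (Benjamini-Hochberg). Deviations of a total and a polysome library of 1 number correlated across genes with r = 0.142, 0.347, 0.413 and 0.230.

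Alternatives were DESeq2 1.42.0, its size factors, scaling without mitochondrial genes, 4 other filters, no block, 1 fit of all libraries, other thresholds, a GC correction added after seeing the data, and each replicate left out. Annotation came from GENCODE v44 and RefSeq, matched by symbol.

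The members and lists were chosen with earlier results of these data known. Named genes are the 10 highest and 10 lowest called coding genes (mean log2 CPM of 4 or more) and the 6 highest and 6 lowest non-coding ones (2 or more), of each list the 3 highest, the 3 lowest and the most abundant member (3 or more), and the members of lists of 20 or fewer. The keratins were named as markers. Some genes and sequences that met this rule are not reported here.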

Additional observations from a re-analysis of the deposited data

Results flagged for a closer look

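Among 175 values with 4 replicates, 14 had 1 replicate far from the other 3, where chance alone gives about 1 in 20. Replicate 2 gave most of them. The median log2 ratio of the other TOP mRNAs was −0.51 in replicate 2, against 0.19 to 0.29 in the others. That of the CCT subunits was −0.12 against 0.64 to 0.79, and that of genes for under 100 residues was −1.29 against −1.59 to −1.56. Single genes with a distant replicate 2 were HERC2 (2.90, others 1.99 to 2.13), RPS16 (0.12, others −0.66 to −0.58) and VIM (0.17, others 0.75 to 0.80). SNHG6 (−3.26, others −2.17 to −2.01), NORAD (−0.20, others 0.68 to 0.83) and SAT1 (−0.72, others −1.34 to −1.27) did the same.

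In replicate 1 the median of the immediate early genes was −0.23, against 0.33 to 0.37 in the others. PABPC1 was at −1.97 in replicate 3, against −1.09 to −0.94. In replicate 4, UBR4 was at 2.76 (others 2.03 to 2.11), RACK1 at 0.20 (others 0.53 to 0.58) and H3C14 at 4.02 (others 1.00 to 1.29).

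For 6 of 348 comparisons of a value between DMSO and a compound, all 4 replicates had one sign with DMSO and all 4 the other sign with the compound. With CID661578 these were TRNS1 at −1.44 and MIR12136 at −1.41, which were higher in polysome RNA with DMSO. With cercosporamide they were EIF4E at 0.33, HSPA5 at 1.29 and TCP1 at 0.64, all negative with DMSO, and H3C14 at −0.90, which was positive with DMSO. Whether these ratios differ between treatments was not tested.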

How the results depend on the processing

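Without the replicate block, and so without pairing, 1875 genes were called higher with DMSO and 1640 with CID661578, and the cause was not tested. A limit of over 2-fold left 1398 higher and 1989 lower with DMSO, as a stricter limit must. Without 1 replicate, the higher calls with CID661578 numbered 1651 to 2465. The median from 200 to under 400 residues was −0.18 with the GC correction and −0.12 to −0.08 without 1 replicate. The cause of neither was tested. The median of the snoRNA and scaRNA genes was 0.31 over genes with a mean log2 CPM of 3 or more, since 1 gene was left, but −2.31 to −2.01 with 3 other choices of genes or libraries, and that of the microRNA genes was −0.06 with no filter. Each named gene was refitted under each alternative, and of these gene and setting pairs 1806 kept the call as it was, 49 lost and 14 gained a call. Pairs of 1 gene are not independent, and the named genes include the strongest changes. The alternatives moved the median of all genes by at most 0.07. Depth limits genes with few counts, and polysome RNA with cercosporamide in replicate 4 the most. Antisense, overlapping and multi-copy genes are uncertain.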

Other observations

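HBA1, an alpha-globin gene, had 13 to 54 counts in each DMSO library, while HBB and ALAS2 had 0. CD68 averaged 521 ± 46.6 CPM of unscaled total libraries (SD, n = 4), while PTPRC and CD3E, which mark leukocytes, had 0.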
